A study of Mus musculus with 4 samples.

Results

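The nuclear receptors are transcription factors, most of which bind a small lipid-soluble ligand and regulate genes as homodimers or as partners of a retinoid X receptor (RXR). The receptors described here are 43 genes, among them the peroxisome proliferator-activated receptors (PPARs), the farnesoid X receptor (FXR, gene NR1H4) and the liver X receptors (LXRs, genes NR1H2 and NR1H3). Their probes were taken by gene name from the non-control probes of each array. Of the 43 genes, 42 had at least 1 probe, out of 18760 genes named on the array, and together they had 69 probes. NR6A1 had no probe under that name.

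RNA came from H460, a human lung carcinoma line in long-standing use, grown in a serum-containing medium. The cells were given 250 µM farnesol, an isoprenoid alcohol derived from the mevalonate pathway, or its solvent dimethyl sulphoxide as vehicle, for 4 h. Per the labels the experiment was done in duplicate, and each farnesol RNA was hybridised with its own matched vehicle RNA on 2 arrays with the dyes exchanged, so the 4 arrays give n = 2. The samples' organism label reads mouse, although H460 is human and so are the gene names on the arrays. H460 is a single line and no knockout, knockdown or treatment other than farnesol and vehicle was part of the design. The p-values therefore rest only on the spread between 2 experiments in 1 line, which the moderated test pools with that of all features. In RNA from a culture, fewer cells with a transcript and less transcript per cell cannot be told apart.

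FXR took its name from farnesol and related isoprenoids, which were described as its activators before bile acids were recognised as its ligands. PPARs respond to fatty acids, LXRs to oxysterols and FXR to bile acids, and all bind DNA with an RXR. Retinoic acid, thyroid hormone and vitamin D receptors also pair with an RXR, steroid receptors bind as homodimers, and REV-ERBs and RORs act on shared sites in circadian clock genes. These arrays report the transcripts that encode the receptors, not receptor protein or activity.

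A probe was counted as tested where the scanner software flagged it as well above background in the same condition on at least 1 array of each experiment. By this rule 40 of the 43 receptors were tested, through 57 of the 69 probes, and 37 of them were flagged on all 4 arrays in vehicle and 37 on all 4 in farnesol. RXRG, a retinoid X receptor, and PGR, the progesterone receptor, had no probe well above background on any array in either condition. The flag was widespread on these arrays: it held for 82.7% to 93.0% of all spots per channel, but for 0% to 0.955% of the 314 negative-control spots. All 5 epithelial markers of the labelled cell type were flagged on every array in at least 1 condition, but so were 4 of 4 leukocyte, 3 of 3 endothelial, 4 of 4 fibroblast and 2 of 3 hepatocyte markers. A flag therefore marks a signal above local background, and whether that signal comes from the named transcript was not tested. Of the 18 markers tested, KRT19, an epithelial keratin, was the only one past 1.5-fold in both experiments (log2 ratio -0.65 ± 0.019 (SD, n = 2)). Across all features the arrays of a pair correlated at r = 0.943 and r = 0.942, and arrays of different experiments at r = 0.633 to 0.684.

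Most receptor transcripts read close to their vehicle level under the main processing. The offset it adds to the intensities shrinks ratios of dim probes, so a small ratio there need not mean a stable transcript. Values here are log2 ratios of farnesol over vehicle, so that 1 is a doubling, and each experiment's value is the mean of its dye-swapped pair. The median over the 40 tested receptors was 0.026, against 0.012 over all 17871 named genes tested. In 24 of the 40 receptors (60%) both experiments lay within 0.25 of 0, as they did in 60.9% of all named genes. The sign was the same in both experiments for 30 of 40 (75%), against 66.5% of named genes. On all 4 arrays 14 receptors were higher (35%, against 21% of named genes) and 6 were lower (15%, against 24.8%). Limma's moderated test with Benjamini-Hochberg adjustment over 28594 features called 0 of the 40 receptors at an adjusted p of 0.05, where it called 0.0168% of named genes, and the lowest adjusted p of a receptor was 0.191. At an unadjusted p of 0.05, 2 receptors were higher (NR1D1 and RORA), beside 4% of named genes, and 5 were lower (RXRA, NR1H3, THRA, NR0B1 and ESRRA), beside 13% of named genes. By size, NR1D1 was at least 2-fold higher in both experiments and on all 4 arrays, a group that holds 0.839% of named genes, and no receptor was at least 2-fold lower, which 0.313% of named genes were. Both statements turned under median centring, where NR1D1 (mean 1.20) missed the 2-fold rule and RXRA (mean -1.24) met it as lower. By the 1.5-fold rule, which asks the same at the smaller size, NR1D1 was higher (1.57% of named genes) and RXRA was lower (1.92% of named genes).

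**Figure D1:**
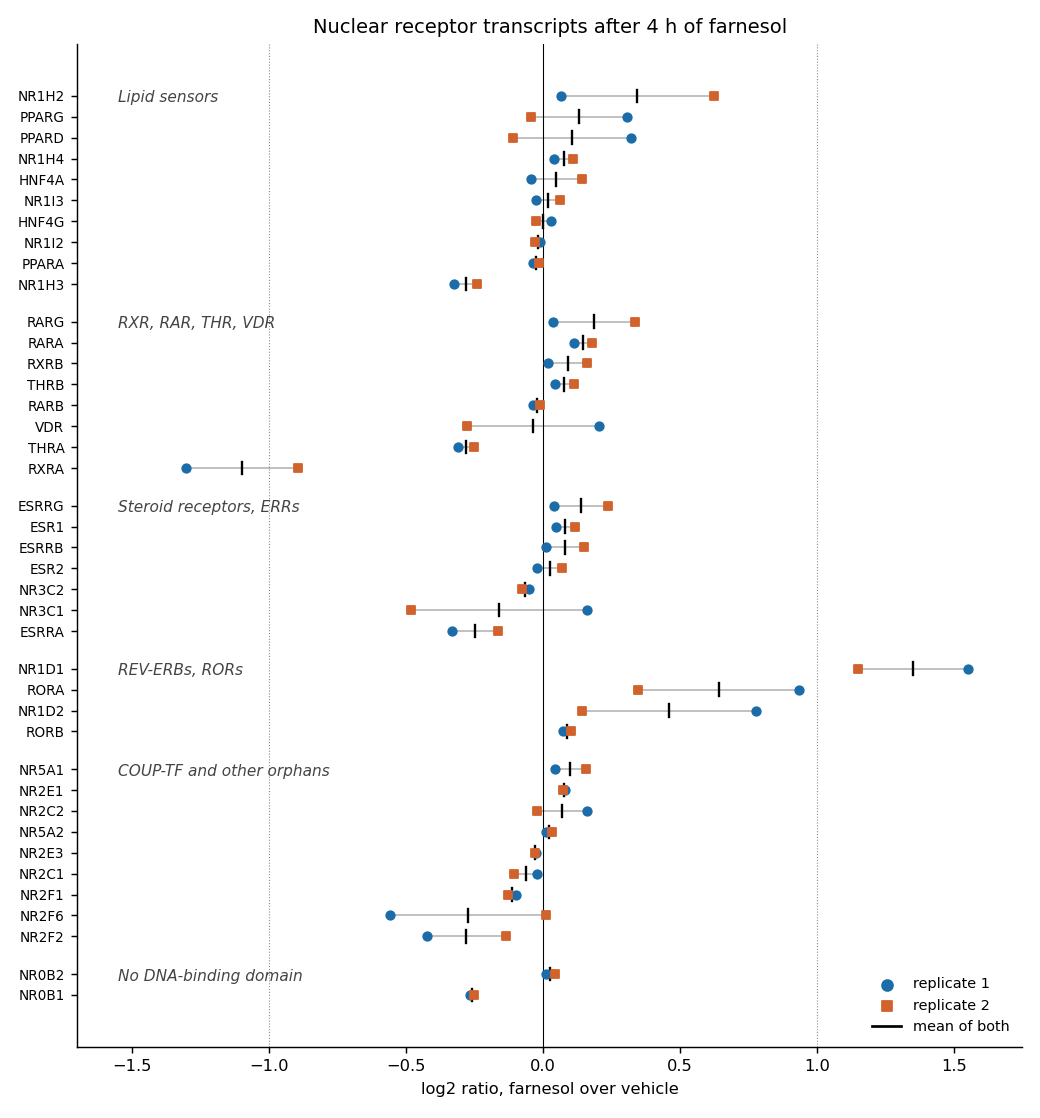
Log2 ratio of farnesol over vehicle for each of the 40 tested receptors, through its brightest tested probe, grouped by role; circles are experiment 1, squares are experiment 2, the short bar is their mean, and dotted lines mark a 2-fold difference. NR1D1 lies farthest to the right (mean 1.35) and RXRA farthest to the left (mean -1.10), while 24 of the 40 have both points within 0.25 of 0.

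Among the lipid sensors none of the PPAR, LXR or FXR transcripts was 1.5-fold higher or lower in both experiments. PPARG, the fat-cell regulator of lipid storage, had log2 ratios of 0.40 and 0.21 on the arrays of experiment 1 and 0.074 and -0.16 on those of experiment 2 (farnesol in Cy5 and in Cy3, the order used throughout). Its experiments differed in sign, with a mean of 0.13 ± 0.25 (SD, n = 2) and a 95% interval from the moderated fit of -0.25 to 0.52, and the mean was -0.013 when log ratios were only centred on the array's median. PPARD, the broadly expressed fatty acid sensor, likewise stood at 0.45 and 0.19 in experiment 1 and at -0.029 and -0.19 in experiment 2, a mean of 0.11 ± 0.31. PPARA, which drives fatty acid oxidation in liver, had 4 probes of which 2 were tested. Its brighter tested probe read 0.064, -0.14, 0.018 and -0.044, a mean of -0.025 ± 0.016 with an interval of -0.20 to 0.15. The dimmer tested probe had a mean of 0.050 ± 0.013, so the direction of PPARA depended on the probe. The interval of each PPAR transcript included 0.

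FXR itself (NR1H4) read 0.033 and 0.049 in experiment 1 and 0.12 and 0.10 in experiment 2. All 4 arrays were above 0, but the mean of 0.076 ± 0.049 had an interval of -0.11 to 0.27 (adjusted p = 0.627 by limma). That interval holds for ratios with the offset, which shrinks those of dim probes, so it does not exclude a larger rise. The log2 level of NR1H4 was 6.88 and 6.98 in vehicle and 6.92 and 7.09 in farnesol, and the farnesol level of experiment 1 lay below the vehicle level of experiment 2. With no offset added to the intensities the ratio was 0.14, and from the scanner software's processed signals 0.15.

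The LXR transcripts went in different directions. NR1H3, which encodes LXR alpha, read -0.40 and -0.25 in experiment 1 and -0.29 and -0.19 in experiment 2, so all 4 arrays were below 0. Its mean was -0.28 ± 0.059, or 1.22-fold less in farnesol, with an interval of -0.48 to -0.086 (limma adjusted p = 0.257), and it was -0.50 under median centring. NR1H2, which encodes the ubiquitous LXR beta, read 0.0057 and 0.13 in experiment 1 and 0.71 and 0.54 in experiment 2. Its mean of 0.34 ± 0.39 rested on experiment 2, and without that experiment it was 0.066. The other tested probe of NR1H2 had a mean of 0.0060 ± 0.036. The xenobiotic sensors NR1I2 (PXR) and NR1I3 (CAR) and the hepatocyte nuclear factors HNF4A and HNF4G had means between -0.019 and 0.049, with single experiments from -0.044 to 0.14. Over the 10 lipid sensors the median was 0.033.

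RXRA, which encodes the common partner of PPARs, LXRs and FXR, was the only tested receptor at least 1.5-fold lower in both experiments, by its brightest probe. That probe read -1.19 and -1.41 in experiment 1 and -0.84 and -0.95 in experiment 2. The log2 level went from 9.50 to 8.20 and from 9.29 to 8.39, and neither farnesol value reached a vehicle value. The mean log2 ratio was -1.10 ± 0.29, or 2.14-fold less in farnesol, with an interval of -1.54 to -0.66 (limma adjusted p = 0.196, and 0.0634 to 0.261 under the alternatives that kept the 2 experiments as the replicates). The other RXRA probe did not show this: it read 0.096, 0.056, 0.093 and 0.012, a mean of 0.064 ± 0.017, at levels of 8.72 and 8.88 in vehicle and 8.80 and 8.93 in farnesol. Averaging both probes gave -0.52. The choice between them was close, since their mean log2 intensities over all arrays were 8.85 and 8.83, and in farnesol the probe that did not stand for the gene was the brighter. With that probe RXRA would not meet the 1.5-fold rule. The probe annotation lists the same RefSeq transcript but different Ensembl transcripts for them, and which part of the gene each probe reads was not analysed here. RXRB, the second RXR, read 0.0034 and 0.031 in experiment 1 and 0.16 in both arrays of experiment 2, a mean of 0.090 ± 0.10 that was -0.042 under median centring.

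The partners of RXR among the hormone and vitamin receptors differed little. THRA, which encodes a thyroid hormone receptor, was lower on all 4 arrays by its brightest probe, with -0.31 in experiment 1 and -0.25 in experiment 2 (mean -0.28 ± 0.042, limma adjusted p = 0.249). The other THRA probe had 0.025 and 0.34, a mean of 0.18 ± 0.23 that rested on experiment 2, so the means of the THRA probes differed in sign. THRB had a mean of 0.079 ± 0.047. The retinoic acid receptors had means of 0.15 ± 0.045 for RARA, -0.023 ± 0.017 for RARB and 0.19 ± 0.21 for RARG by their brightest probes, and the sign turned for RARA under median centring (-0.079). The other tested probes had means of -0.041 for RARA and -0.091 for RARG. VDR, the vitamin D receptor, was 0.21 in experiment 1 and -0.28 in experiment 2. The median over these 8 tested receptors, RXRs included, was 0.028.

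The REV-ERBs and RORs were the only role group in which every tested member was higher on all 4 arrays, a pattern seen in 21% of named genes. NR1D1, which encodes the heme-binding repressor REV-ERB alpha, read 1.76 and 1.34 in experiment 1 and 1.29 and 1.01 in experiment 2. Its log2 level went from 8.24 to 9.79 and from 8.24 to 9.39, and both farnesol values lay above both vehicle values. The mean of 1.35 ± 0.28, or 2.55-fold, had an interval of 0.92 to 1.78 (limma adjusted p = 0.191, and 0.0717 to 0.252 under the alternatives that kept the 2 experiments as the replicates). The other NR1D1 probe was higher on all 4 arrays too, but by less: it read 0.65, 0.46, 0.33 and 0.29, a mean of 0.43 ± 0.17 or 1.35-fold. The mean of both probes was 0.89, and no receptor was then at least 2-fold different in both experiments. Under median centring NR1D1 was 1.20 by its brightest probe and also missed the 2-fold rule. NR1D1 and THRA overlap at their 3′ ends on opposite strands in the human genome, and the position of the probes relative to that overlap was not analysed here.

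RORA, which encodes an activator that binds the sites REV-ERBs repress, read 0.98 and 0.89 in experiment 1 and 0.36 and 0.34 in experiment 2. The mean was 0.64 ± 0.42, with an interval of 0.033 to 1.25 (limma adjusted p = 0.326), and both arrays of experiment 1 lay above both of experiment 2. RORA had log2 levels of 6.37 and 6.38 in vehicle and 7.31 and 6.73 in farnesol, and the size of its ratio depended on how the background was treated. With no offset the mean was 1.23 (1.66 and 0.79 in the experiments), and from the processed signals it was 1.43. NR1D2, which encodes REV-ERB beta, read 0.87 and 0.69 in experiment 1 but 0.19 and 0.091 in experiment 2, a mean of 0.46 ± 0.45. Its other probe was higher in experiment 1 (0.46) and lower in experiment 2 (-0.28). RORB, the neuronal ROR, had a mean of 0.087 ± 0.020 through 1 tested probe. The values of RORA and NR1D2 in every array are given although neither was 1.5-fold higher in both experiments under the main processing, a choice made after their values were seen. The median of the group was 0.86 in experiment 1 and 0.24 in experiment 2.

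**Figure D2:**
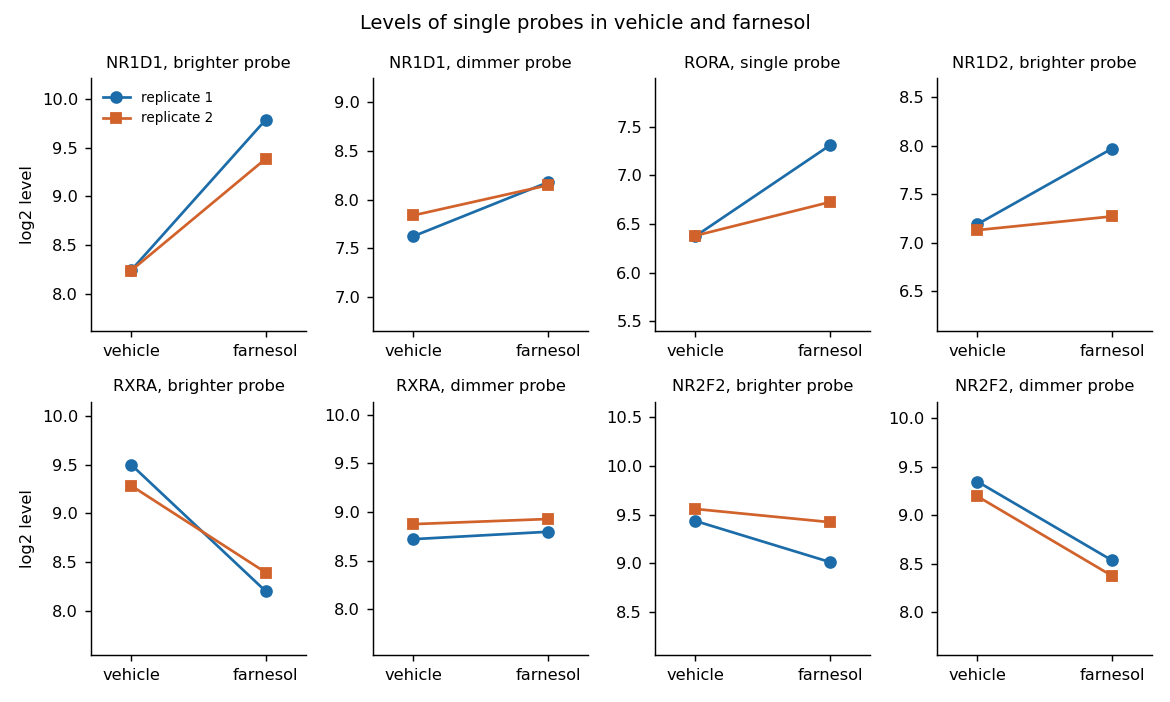
Normalised log2 level of single probes in vehicle and farnesol, each line an experiment and each point the mean of its 2 arrays; every panel spans the same range of log2 units, and levels are not compared between panels. Both probes of NR1D1 go up, RORA and NR1D2 go up more in experiment 1 than in experiment 2, and the brighter RXRA probe goes down while the dimmer one stays level (means -1.10 and 0.064).

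The steroid receptors and estrogen-related receptors (ERRs) showed no member at least 1.5-fold different in both experiments, over means from -0.25 to 0.14. NR3C1, the glucocorticoid receptor, was 0.16 in experiment 1 and -0.48 in experiment 2, and its other probe was 0.022 and -0.27. NR3C2, the mineralocorticoid receptor, was flagged on 1 array in farnesol and 2 in vehicle, with a mean of -0.064 ± 0.017 that was -0.59 with no offset and 0.076 under median centring, so its direction depended on the processing. The estrogen receptors had means of 0.081 ± 0.049 for ESR1 and 0.025 ± 0.064 for ESR2, and ESR1 was -0.037 under median centring. ESRRA, an orphan receptor that regulates mitochondrial genes, was -0.33 and -0.16, a mean of -0.25 ± 0.12. ESRRB and ESRRG had means of 0.080 ± 0.099 and 0.14 ± 0.14, and ESRRB was -0.012 under median centring. The other tested probes of ESR1, ESRRB and ESRRG had means of -0.027, -0.047 and -0.0026, each opposite in sign to the brightest probe of its gene.

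Among the orphan receptors the COUP transcription factors stood lowest. NR2F2, which encodes COUP-TFII, read -0.53 and -0.32 in experiment 1 and -0.13 and -0.14 in experiment 2 by its brightest probe, a mean of -0.28 ± 0.20 (limma adjusted p = 0.407). Its other probe read -0.81, -0.81, -0.80 and -0.84, a mean of -0.81 ± 0.0052 or 1.76-fold less in farnesol (adjusted p = 0.183 in the fit with every probe as a feature). Both probes of NR2F2 were lower on all 4 arrays, and only the dimmer one was at least 1.5-fold lower in both experiments. NR2F6, a related receptor, was -0.56 in experiment 1 and 0.0096 in experiment 2. NR2F1, which encodes COUP-TFI, was flagged on 3 vehicle arrays and on no farnesol array, so it was tested through vehicle alone. Its log2 levels were 6.11 in vehicle and 5.99 in farnesol. The mean of -0.11 had an interval of -0.29 to 0.066, 1 array lay above 0, and median centring gave -0.0052. Against the lowest signal counted as above background, or its own farnesol level where that was higher, NR2F1 was 1.07-fold lower. That is close to 1 and shows no clear difference at this brightness. The testicular receptors NR2C1 and NR2C2, the neural receptors NR2E1 and NR2E3, and NR5A1 and NR5A2, which regulate steroid and bile acid synthesis, had means between -0.063 and 0.10.

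NR0B1 (DAX1) and NR0B2 (SHP) lack the usual DNA-binding domain and inhibit other receptors. NR0B1 read -0.44 and -0.089 in experiment 1 and -0.35 and -0.15 in experiment 2, at log2 levels of 12.3 and 12.1 in vehicle and 12.0 and 11.8 in farnesol. All 4 arrays were below 0 and the experiments were alike (mean -0.26 ± 0.011, limma adjusted p = 0.256), while the arrays with farnesol in Cy5 were lower than those with farnesol in Cy3. NR0B2, a known FXR target, had a mean of 0.027 ± 0.023, and -0.0029 under median centring.

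For 16 receptors at least 2 probes were tested, and the probes of a gene did not always give the same ratio. The median gap between the highest and lowest probe of a gene was 0.16 on the log2 scale, against 0.12 over the 6571 named genes with several tested probes. The gap was at least 1 in 1 of the 16 receptors, RXRA (6.25%, against 1.38% of those genes), and at least 0.5 in 3 of them, RXRA, NR1D1 and NR2F2 (18.8%, against 9.77%). In NR1D1 and NR2F2 the probes differed in size and not in sign, and in RXRA the other probe lay close to 0.

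**Figure D3:**
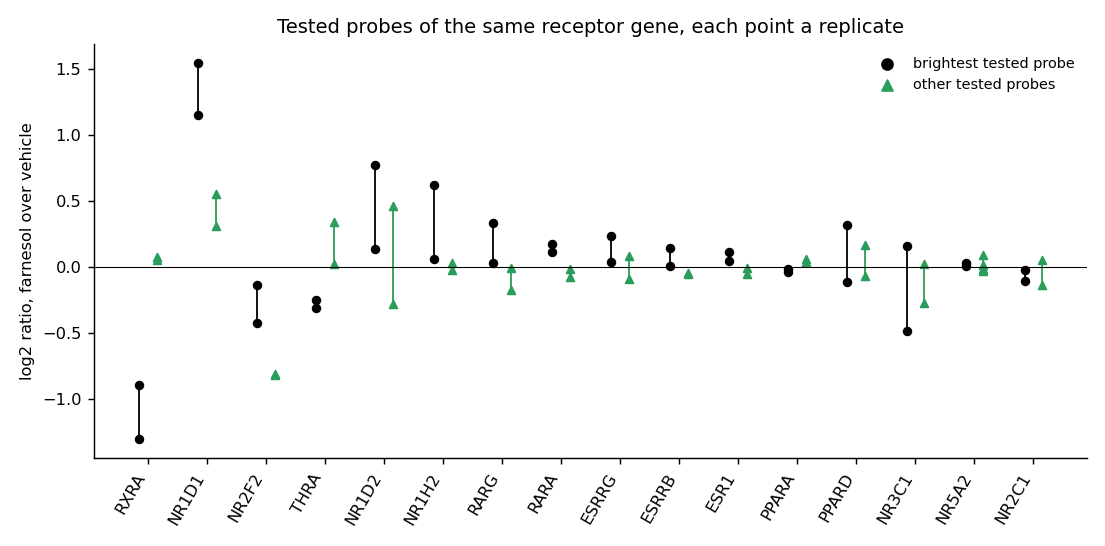
Log2 ratio of farnesol over vehicle for every tested probe of the 16 receptors with several, each point an experiment; circles are the brightest probe, which stands for the gene, and triangles are the others, ordered by the gap between probes. RXRA has 1 probe near -1.10 and another near 0.064, and NR2F2 has a tight pair of points at -0.81.

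Genes that act with the receptors were read from the same fit. The 1.5-fold counts below stand beside 1.57% of named genes higher and 1.92% lower. The lists were chosen with earlier results of these data known, so the counts do not show that a list differs from other genes. Of 22 coactivators listed, 21 were tested, and 2 met the 1.5-fold rule as higher and 0 as lower, with a median of -0.057. NCOA7, a coactivator of estrogen and other receptors, was 2.67 in experiment 1 and 1.53 in experiment 2 (mean 2.10 ± 0.80), and its other probes had means of 1.34 and 1.71. PNRC1, a proline-rich coactivator, was 2.27 and 0.84 (mean 1.55 ± 1.01). The p160 coactivators NCOA1, NCOA2 and NCOA3 had means of -0.11, 0.013 and 0.27. Of 19 corepressors, 19 were tested, 0 were at least 1.5-fold higher and 3 lower, with a median of -0.10. These were the histone deacetylases HDAC2 (mean -1.35 ± 0.36) and HDAC1 (mean -1.10 ± 0.25) and TRIM28, which represses through zinc-finger proteins (-0.77 and -0.62, mean -0.70 ± 0.11). The receptor-bound corepressor NCOR1 had a mean of -0.059, and its other probes had means from -0.071 to 0.024. Of 21 enzymes and carriers that make, bind or remove ligands, 21 were tested and AKR1C3, a reductase of steroids and prostaglandins, was the single gene at least 1.5-fold lower (-0.63 and -0.73, mean -0.68 ± 0.072), with 0 higher and a median of -0.013. FABP5, a fatty acid carrier, had a mean of -0.47 ± 0.083. Limma called 0 genes of these lists at an adjusted p of 0.05; at an unadjusted p of 0.05 the coactivators had 2 higher and 2 lower, the corepressors 0 and 7, and the enzymes and carriers 1 and 3, beside 4% and 13% of named genes.

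Known receptor targets were grouped by the receptor they are best known for, and 56 of 58 were tested. Of these, 7 met the 1.5-fold rule as higher and 1 as lower (1.57% and 1.92% of named genes), with a median of 0.033. The list was chosen with earlier results of these data known, and DUSP1, MIG-6, PER1 and NFIL3 are among the 7. The count therefore does not show that receptor targets differ from other genes. Limma called 0 of the 56 targets, and 8 were higher and 5 lower at an unadjusted p of 0.05, beside 4% and 13% of named genes. The FXR targets ABCB11, the bile salt export pump, FGF19, the intestinal hormone that limits bile acid synthesis, and NR0B2 had means of 0.0018, 0.070 and 0.027, and the 1 of 7 FXR targets past 1.5-fold, SDC1, a cell surface proteoglycan, was lower (-0.75 and -0.65, mean -0.70 ± 0.073), with its other probe at -0.13. The LXR targets ABCA1 and ABCG1, which export cholesterol, had means of 0.031 (other probes -0.12 and 0.021) and 0.095. SCD, a fatty acid desaturase, was -0.56 and -0.82 by its brightest probe, but its other probes had means of -0.077 and 0.070. MYLIP, a ubiquitin ligase that acts on the LDL receptor, was the 1 of 7 LXR targets past 1.5-fold, at 0.66 and 2.16 (mean 1.41 ± 1.06; other probe 1.13). Of 12 PPAR targets, 2 were at least 1.5-fold higher: ADFP, a lipid droplet coat protein, at 1.95 and 0.97, and ANGPTL4, an inhibitor of lipoprotein lipase, at 0.66 and 0.90. The other PPAR targets had means from -0.48 for ACAA2, an enzyme of fatty acid oxidation (-0.31 and -0.65), to 0.42 for PDK4, a kinase that restrains glucose oxidation (0.70 and 0.13).

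The highest ratios lay among glucocorticoid receptor and clock targets. Of 7 glucocorticoid receptor targets 3 passed the 2-fold rule as higher (0.839% of named genes): DUSP1, a phosphatase of MAP kinases, at 5.09 and 4.54 (mean 4.81 ± 0.39, 28.1-fold), MIG-6, which blocks EGF receptor signalling, at 5.28 and 2.88 (other probe 0.89), and the clock gene PER1 at 2.33 and 1.31 (other probe 0.082). DUSP1, MIG-6 and PER1 are also known as early response genes. The other glucocorticoid receptor targets had means from -0.36 for SGK, a kinase (-0.66 and -0.052), to 0.19 for ZBTB16, and FKBP5 and DSIPI, which glucocorticoids induce in many cell types, had -0.058 (other probe 0.017) and 0.098. Of 3 targets of REV-ERBs and RORs, NFIL3, a clock-linked repressor, had a mean of 2.73 ± 1.24, while ARNTL, the clock activator, and CRY1 had means of 0.058 and -0.071. Of 9 retinoic acid receptor, 2 vitamin D receptor, 3 thyroid hormone receptor, 3 ERR and 3 PXR and CAR targets, 0 were at least 1.5-fold different in both experiments. CYP26A1 and CYP24A1, classic targets of the retinoic acid and vitamin D receptors, had means of -0.050 and 0.064, and CYP3A4, the PXR target, had 0.25 ± 0.032. NR0B2 is both a receptor and a target, and DHRS3 and CRABP2 stand among both the enzymes and carriers and the targets. ADFP, MYLIP, ANGPTL4 and PER1 and the genes in these lists that did not reach 1.5-fold were named after their values were seen.

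**Figure D4:**
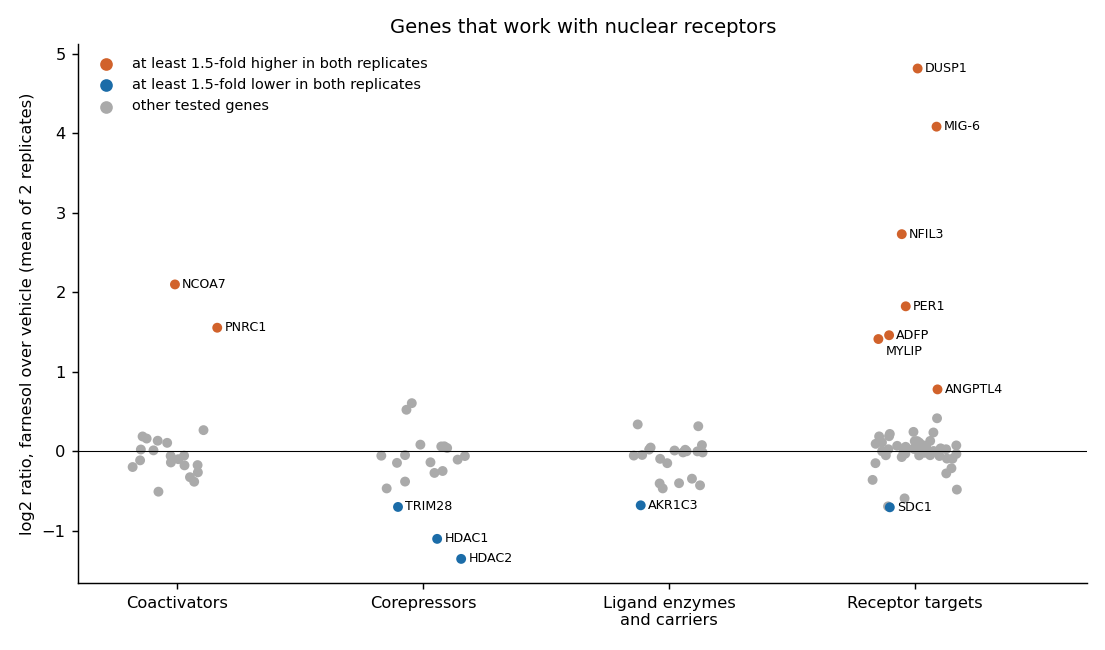
Mean log2 ratio of farnesol over vehicle (n = 2) of each tested coactivator, corepressor, ligand enzyme or carrier, and receptor target; horizontal scatter within a column is only for display. Orange points met the 1.5-fold rule as higher (2, 0, 0 and 7 genes from left to right) and blue points as lower (0, 3, 1 and 1).

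The authors' deposited table lists 7018 probes with a ratio of farnesol over vehicle and follows experiment 1 (r = 0.9999 with the scanner software's log ratio), so it is no second measurement. The authors' deposited table holds 12 receptor probes of 9 genes, 17.4% of the receptor probes, where it holds 17.1% of all non-control probes. The highest receptor ratios in the authors' deposited table were 3.57 for RORA, 3.24 and 1.64 for the probes of NR1D1 and 2.08 and 1.69 for those of NR1D2. The lowest ratios in the authors' deposited table were 0.367 for the brighter probe of RXRA, 0.540 and 0.737 for the probes of NR2F2 and 0.575 for NR2F6. In the authors' deposited table VDR had a ratio of 1.18, RARG 0.816 by its dimmer probe and THRA 0.781. No probe of a PPAR, an LXR or FXR is in the authors' deposited table.

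The size of the main differences varied with the processing more than their direction. NR1D1 ranged from 0.89 to 1.56 over 12 alternatives, RXRA from -1.30 to -0.52, RORA from 0.35 to 1.43 and NR1H3 from -0.50 to -0.22, all with the sign of the main value. None of the 12 took the other RXRA probe alone, whose mean of 0.064 has the opposite sign. PPARG, PPARD and PPARA took the opposite sign under 2 of the 12 alternatives each, and NR1H4 under none of them, over a range of 0.041 to 0.15. These signs were partly fixed in advance: changing the filter or fitting single arrays left each of these ratios unchanged. NR1D1, RXRA, RORA, NR1H3 and NR1H4 shared a sign on all 4 arrays, so no replicate or dye orientation alone could reverse them. For RORA, NR1H3 and NR1H4, with 1 probe each, only the offset, median centring and processed signals could.

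**Figure D5:**
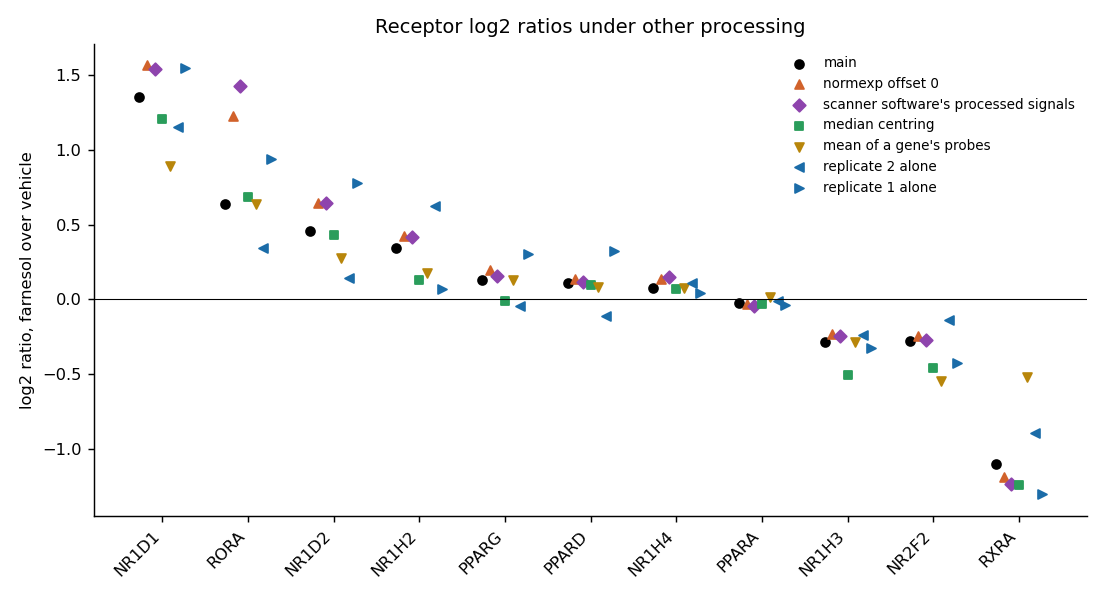
Log2 ratio of farnesol over vehicle for 11 receptors under the main processing and under 6 alternatives, with replicate 1 and replicate 2 standing for the 2 experiments. RORA is higher with no offset (1.23) and from the processed signals (1.43) than under the main processing (0.64), and RXRA is nearer 0 when both of its probes are averaged (-0.52).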

How the data were processed

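RNA of farnesol-treated and vehicle-treated cells was compared on 4 two-colour Agilent arrays. Each array had its own slide, the labels name no batch, and the arrays of an experiment entered as 1 replicate. The deposited files hold scanner output (Agilent Feature Extraction 8.1.1.1, per the file headers): intensity values of spot and local background per channel, processed intensity values, and a log10 ratio of Cy5 over Cy3. A ratio and a p-value per probe stand in a further file that the authors deposited.

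In R 4.3.3 with limma 3.58.1 and data.table, version 1.17.8, a normexp correction (offset 50, which shrinks ratios of dim probes) was followed by loess within arrays. Control and outlying spots were left out, arrays with farnesol in Cy3 were turned in sign, and each dye-swapped pair was reduced to its mean (n = 2). The brightest tested probe stood for a gene. Limma tested the mean of both replicates against 0 (two-sided; prior degrees of freedom 1.81, residual 1; threshold 0.05). Size calls needed at least 2-fold or 1.5-fold the same way in both replicates and on all 4 arrays. Levels are log2 values after quantile normalisation of average intensity between arrays. The scripts were tested on simulated data.

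The receptors and lists were chosen with earlier results of these data known. Every array's value is given for PPARs, LXRs, FXR, RXRA, RXRB and members past 1.5-fold; of other lists, the 3 highest and 3 lowest past 1.5-fold are named. Other probes of a receptor are given where they differ by over 0.5 or in sign. Alternatives covered the offset, normalisation within and between arrays, processed signals, the filter, the probe rule, dye orientation, single arrays and each replicate alone. The only reference at hand is for mouse, so no human sequence or position is given.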

Additional observations from a re-analysis of the deposited data

Results flagged for a closer look

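Each of the 57 tested receptor probes was checked by Dixon's criterion for a single array far from the other 3. For independent values chance meets it in about 1 of 20 probes. The arrays are dye-swapped pairs, so that rate need not hold here. The criterion was met by 2 probes. The dimmer tested probe of PPARA read 0.020 on the array of replicate 1 with farnesol in Cy5 and 0.057 to 0.062 on the other arrays. The brightest probe of RARA read 0.25 on the array of replicate 2 with farnesol in Cy5 and 0.10 to 0.12 on the others.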

How the results depend on the processing

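The count of receptors called by limma was 0 under each alternative that kept the replicates as the unit, and 4 (NR1D1, RORA, RXRA and THRA) with single arrays and the replicate as a random block, where 2894 of 28594 features were called and the adjusted p was 0.00752 for NR1D1, 0.00468 for RXRA and 0.0364 for RORA. The count at least 2-fold different was 3 from processed signals (NR1D1, RORA and RXRA) and 0 for the mean of a gene's probes, and 1 to 2 with either replicate left out, where 2.55% and 2.56% of named genes passed in place of 1.15%. Under median centring it was 1, but that gene was RXRA and not NR1D1. The shares of named genes at least 2-fold different were 1.86% from processed signals, 0.985% for the mean of a gene's probes and 1.3% under median centring. The count at 1.5-fold was 1 (NR1D1) for the mean of a gene's probes, and 3 to 4 with either replicate left out, where 10.1% (without replicate 1) and 6.79% (without replicate 2) of named genes passed in place of 3.49%. The receptors' median log2 ratio was 0.070 with no offset, 0.0052 under median centring, 0.058 from processed signals, 0.049 with detection required on all 4 arrays, 0.016 on arrays with farnesol in Cy5 and 0.020 on those with farnesol in Cy3. It was 0.014 to 0.022 with either replicate left out. In the receptor target list limma called 1 gene with no offset, 1 under median centring and 1 from processed signals (DUSP1 each time). Named genes at least 2-fold higher and lower numbered 150 and 56, and 124 and 109 under median centring; at 1.5-fold they numbered 280 and 343, and 227 and 596. No alternative moved the median of all features by over 0.1, but the normalisations centre the log ratios, so little movement was possible. Single receptors did move: under median centring NR0B1 was -0.48 against -0.26, and ESRRA was -0.46 against -0.25. Signal over background limits the smallest signals: from processed signals NR2F1 was -0.69 and NR3C2 -0.27, against -0.11 and -0.064.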
